A study of Mus musculus with 24 samples.

Results

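The inflammasome genes described here were 9 genes of the mouse: the sensors Nlrp3, Nlrp1b, Nlrc4, Aim2 and Mefv, the adaptor Pycard, the caspases Casp1 and Casp4, and the pore-forming effector Gsdmd. Open chromatin around them was measured by ATAC-seq, in which a transposase cuts and tags accessible DNA. A consensus peak, a region called open and merged over all libraries, was taken for these genes when it overlapped a gene body or the 20 kb on either side (GENCODE release M21 on mm10), and it was given to the nearest of the 9. This took 117 of 184158 consensus peaks, of which 112 passed a filter on low counts and were tested among all 174193 peaks that passed it.

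The 24 libraries came from mouse bone marrow-derived macrophages (BMDMs) and formed 4 groups of 6 by genotype and treatment, called WT_unstimulated, AhR-KO_unstimulated, WT_LPS and AhR-KO_LPS. Per the study's methods each library of a group was from a separate animal. WT mice were C57/B6/J, and AhR-KO mice carried the tm1Bra allele of Ahr on a B6.129 strain, so that all their cells lacked the aryl hydrocarbon receptor (AhR), a ligand-activated transcription factor. The allele and the strain background cannot be told apart, and 0 consensus peaks covered exon 2 of Ahr, the exon that this allele removes, so the peak counts could not check the deletion. Marrow of all groups was grown with GM-CSF (10 ng/ml), TGF-β (2 ng/ml) and serum (10%). The labels give LPS, a component of the bacterial outer membrane, at 97 EU/ml on day 6 for 24 h, then the calcium ionophore A23187 at 5 µM for 10 min, and attach that text to every library, the unstimulated ones included. The study asked what AhR does in such alveolar-like macrophages with and without LPS.

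Inflammasomes are complexes that macrophages assemble when a sensor meets a microbe or cell damage. NLRP3 responds to potassium loss, NLRP1B to attack by bacterial proteases, NLRC4 to flagellin and needle proteins bound by NAIP receptors, and AIM2 to DNA in the cytosol, while Mefv encodes the sensor pyrin. PYCARD, also called ASC, links sensors to CASP1, which matures IL-1β and IL-18, while CASP4, also called caspase-11, binds LPS in the cytosol. Both caspases cut GSDMD, whose pores lead to pyroptosis.

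The 117 peaks were spread unevenly. Aim2, with the longest gene body of the 9, held 37, Nlrp3 14, Nlrc4 13, Casp4 11, Gsdmd 11, Nlrp1b 10, Mefv 10, Pycard 9 and Casp1 2. There were 8 peaks over the start of a protein-coding transcript (start peaks), 41 in introns, 9 over coding exons, 4 over untranslated exons, 28 upstream and 27 downstream of a gene. They were 147 to 3240 bases long (median 670), and 48 were called in all 24 libraries. A peak near a gene need not act on it, and 31 of the 117 also lay over another gene, such as Ifi206 beside Aim2 and Slc30a6 beside Nlrc4. The 5 peaks too low to test were 2 of Aim2 and 1 each of Nlrc4, Pycard and Casp4.

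The sequences that follow are 300 bases centred on the peaks with the main differences, read from GRCm38 on the plus strand. Capitals mark matches to 6 motifs searched on both strands: GCGTG (the core AhR element), TGANTCA (AP-1), the composite site of PU.1 and IRF factors (GGAA, any base, TGAAA), the interferon-stimulated response element (ISRE; GAAA, any 2 bases, GAAA), NF-κB (GGG, any 2 bases, TTTCC) and TTCNNNGAA (STAT). The peaks upstream of Mefv and Nlrc4 are shown because they had the smallest p-values among rises with LPS, and each held 1 AP-1 match. The Aim2 intron peak and the peak beyond the 3′ end of Nlrc4, within Slc30a6, are shown because they led the falls in AhR-KO cells without and with LPS, and neither held a match in this window. The Aim2 peak is 254 bases long, so that its window runs past it on both sides.
Mefv upstream, chr16:3728372-3728671: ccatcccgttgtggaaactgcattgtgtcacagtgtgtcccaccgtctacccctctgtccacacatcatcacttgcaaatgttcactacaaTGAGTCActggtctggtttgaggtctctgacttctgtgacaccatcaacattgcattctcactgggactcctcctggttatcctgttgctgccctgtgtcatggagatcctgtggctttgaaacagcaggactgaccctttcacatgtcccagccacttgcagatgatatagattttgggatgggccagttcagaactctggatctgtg
Nlrc4 upstream, chr17:74478705-74479004: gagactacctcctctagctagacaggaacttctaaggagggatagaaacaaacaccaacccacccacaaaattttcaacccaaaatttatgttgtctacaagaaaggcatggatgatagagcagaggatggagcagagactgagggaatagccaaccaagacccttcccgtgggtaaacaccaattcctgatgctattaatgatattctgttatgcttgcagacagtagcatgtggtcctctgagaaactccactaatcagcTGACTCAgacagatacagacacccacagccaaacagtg
Aim2 intron, chr1:173447142-173447441: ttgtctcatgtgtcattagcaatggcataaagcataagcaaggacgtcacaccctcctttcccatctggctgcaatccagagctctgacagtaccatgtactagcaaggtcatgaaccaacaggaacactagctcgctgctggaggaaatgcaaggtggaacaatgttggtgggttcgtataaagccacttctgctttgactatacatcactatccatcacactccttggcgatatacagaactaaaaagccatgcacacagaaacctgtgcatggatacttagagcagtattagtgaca
Nlrc4 downstream, chr17:74414623-74414922: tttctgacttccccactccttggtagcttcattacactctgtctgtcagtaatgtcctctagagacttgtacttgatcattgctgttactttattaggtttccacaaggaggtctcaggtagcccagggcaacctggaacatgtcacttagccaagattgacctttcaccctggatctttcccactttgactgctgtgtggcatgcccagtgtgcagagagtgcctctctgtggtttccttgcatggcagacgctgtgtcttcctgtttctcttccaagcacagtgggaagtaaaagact

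The 250 bases before the RefSeq start of Mefv (GRCm38.p6, minus strand, chr16:3718125-3718374) are shown because the start peak of Mefv was a call for LPS in both genotypes. They held 1 match, to the core AhR element on the opposite strand at position 148 from the 5′ end.
Mefv promoter: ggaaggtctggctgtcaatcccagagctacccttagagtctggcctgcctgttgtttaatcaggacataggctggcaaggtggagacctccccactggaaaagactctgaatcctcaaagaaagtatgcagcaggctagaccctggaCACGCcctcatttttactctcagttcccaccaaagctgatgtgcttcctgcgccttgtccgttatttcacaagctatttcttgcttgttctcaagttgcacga

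Reads in peaks ran from 8.54 to 34.6 M per library, and the shallowest was WT_unstimulated replicate 5. No pair of libraries within a group agreed within sampling noise (the lowest chi-square per peak over 60 pairs was 1.23). Levels are given as CPM, counts scaled to the normalized total of reads in peaks. At 1 CPM, the mean level below which 23 of the 112 tested peaks lay, a value rests on about 8.54 to 34.6 reads per library.

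At the transcript starts LPS raised Mefv in both genotypes and lowered Nlrp1b in AhR-KO cells, and no start peak passed the thresholds between AhR-KO and WT. A peak was called a differentially accessible region (DAR) when its adjusted p was 0.05 or less and its fold 1.5 or more. Of the 8 start peaks 1 was a DAR for LPS in WT and 2 were in AhR-KO, where 10.4% and 15.9% of 13458 start peaks of protein-coding genes were. For genotype 0 of 8 were DARs by edgeR and by DESeq2 in both treatments, where 6.22% and 6.97% of all start peaks were by edgeR. Without the fold threshold 5 and 1 of the 8 had an edgeR adjusted p at or under 0.05 without and with LPS, and 5 and 2 an unadjusted p under 0.05. No share over all start peaks is given at these looser thresholds, so these counts cannot be read against the shares above.

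**Figure D1:**
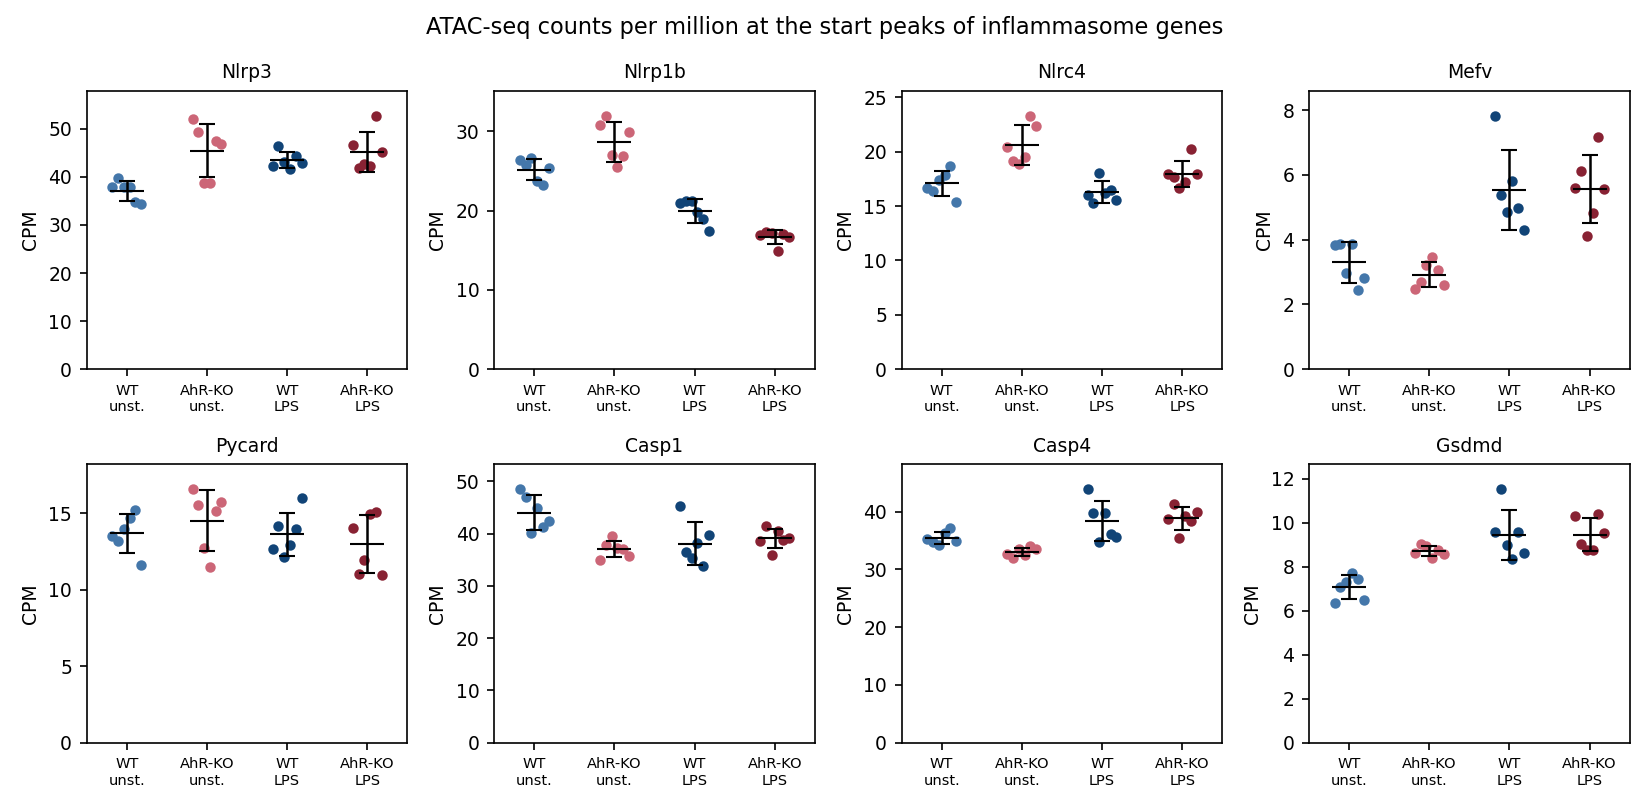
Accessibility of the 8 start peaks in every library, in CPM on linear axes from 0, with the mean and SD of each group of 6. The LPS libraries of Mefv lie above its unstimulated libraries, and at Nlrp1b the AhR-KO_LPS libraries are the lowest, with a median of 16.96 CPM.

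Among the sensors, the Mefv start peak (chr16:3717751-3718602; gene at chr16:3707218-3718097, minus strand) was the least open per length, at 3.42 to 6.53 CPM per kb over the 4 group means. Its lowest, median and highest libraries were at 2.44, 3.39 and 3.88 CPM in WT_unstimulated, 2.48, 2.88 and 3.48 in AhR-KO_unstimulated, 4.30, 5.19 and 7.82 in WT_LPS and 4.11, 5.57 and 7.17 in AhR-KO_LPS. Every LPS library lay above every unstimulated library of its genotype, while the genotypes overlapped within each treatment. The rise with LPS on the log2 scale was 0.72 ± 0.14 in WT (SE, n = 6 per group, edgeR adjusted p = 3.73e-05) and 0.93 ± 0.14 in AhR-KO (edgeR adjusted p = 4.89e-07). The difference between these rises was 0.21 ± 0.20 (edgeR adjusted p = 0.529).

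The Nlrp1b start peak (chr11:71230468-71231803; gene at chr11:71153102-71230733, minus strand) moved the other way. Its lowest, median and highest libraries were at 23.3, 25.6 and 26.6 CPM in WT_unstimulated, 25.5, 28.5 and 31.97 in AhR-KO_unstimulated, 17.5, 20.4 and 21.2 in WT_LPS and 14.9, 16.96 and 17.4 in AhR-KO_LPS. AhR-KO and WT overlapped without LPS and were apart with it, with the AhR-KO libraries lower. LPS lowered the peak in AhR-KO (-0.78 ± 0.064 log2, edgeR adjusted p = 2.12e-13), while the value in WT was -0.34 ± 0.064 (edgeR adjusted p = 1.55e-05), under the fold threshold. AhR-KO minus WT was 0.18 ± 0.063 without LPS and -0.26 ± 0.064 with it (edgeR adjusted p = 0.0197 and 0.00103), and the interaction was -0.44 ± 0.090 (edgeR adjusted p = 0.000841), at folds under 1.5.

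The Nlrp3 start peak (chr11:59541132-59544371; gene at chr11:59541568-59566956) had its lowest level in WT_unstimulated. The lowest, median and highest libraries were at 34.3, 37.9 and 39.8 CPM in WT_unstimulated, 38.7, 47.1 and 51.9 in AhR-KO_unstimulated, 41.7, 42.996 and 46.3 in WT_LPS and 41.9, 43.9 and 52.7 in AhR-KO_LPS. The WT libraries did not overlap between treatments, those of AhR-KO did, and the genotypes overlapped in both treatments. Replicates 3 and 4 of AhR-KO_unstimulated, both at 38.7 CPM, lay within the range of WT_unstimulated, while its other replicates were at 46.8 to 51.9. AhR-KO minus WT was 0.29 ± 0.066 log2 without LPS (edgeR adjusted p = 0.000556) and 0.058 ± 0.064 with it (edgeR adjusted p = 0.491). LPS minus unstimulated was 0.22 ± 0.066 in WT (edgeR adjusted p = 0.00339) and -0.0082 ± 0.065 in AhR-KO (edgeR adjusted p = 0.920), none of them a DAR.

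The start peaks of Nlrc4 (chr17:74457677-74459435; gene at chr17:74425438-74459142, minus strand) and of Gsdmd (chr15:75862058-75863045; gene at chr15:75862327-75867408) were higher in every AhR-KO_unstimulated than in every WT_unstimulated library, at folds under 1.5. Nlrc4 means were 17.1 ± 1.18 CPM in WT_unstimulated (SD, n = 6), 20.6 ± 1.84 in AhR-KO_unstimulated, 16.3 ± 0.998 in WT_LPS and 17.95 ± 1.22 in AhR-KO_LPS, and AhR-KO minus WT without LPS was 0.28 ± 0.068 log2 (edgeR adjusted p = 0.00111). Gsdmd means were 7.07 ± 0.550, 8.72 ± 0.246, 9.44 ± 1.13 and 9.46 ± 0.740 in the same order, with 0.30 ± 0.087 log2 (edgeR adjusted p = 0.00495). With LPS the genotypes overlapped at both genes.

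The caspase starts were among the most open per length. At Casp4 (chr9:5308039-5309829; gene at chr9:5308828-5336783), the densest of the 8 by its mean over groups (20.3 CPM per kb), though below Nlrp1b in AhR-KO_unstimulated, means were 35.4 ± 1.09 CPM in WT_unstimulated (SD, n = 6), 33.01 ± 0.768 in AhR-KO_unstimulated, 38.3 ± 3.45 in WT_LPS and 38.8 ± 1.97 in AhR-KO_LPS. At Casp1 (chr9:5298102-5300951; gene at chr9:5298517-5307265) they were 44.02 ± 3.31, 37.05 ± 1.59, 38.1 ± 4.08 and 39.1 ± 1.88. At both genes every AhR-KO_unstimulated library lay below every WT_unstimulated library, and the genotypes overlapped with LPS. At Casp4 the difference without LPS did not pass the test (AhR-KO minus WT -0.099 log2, edgeR adjusted p = 0.150). AhR-KO minus WT at Casp1 was -0.25 ± 0.061 log2 without LPS (edgeR adjusted p = 0.00108) and 0.036 ± 0.060 with it (edgeR adjusted p = 0.656), with an interaction of 0.29 ± 0.085 (edgeR adjusted p = 0.0189), under the fold threshold. The start peak of the adaptor Pycard (chr7:127991666-127994148; gene at chr7:127989708-127993867, minus strand) had group means of 13.004 to 14.5 CPM, and its groups overlapped in all 4 comparisons.

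Aim2 (gene at chr1:173350879-173466040) had no peak over its annotated GENCODE starts, at 173350879 and 173455354. The RefSeq promoter window of Aim2 (chr1:173420354-173420653) fell in a peak over an untranslated exon (chr1:173420235-173420801), singled out after its values were seen. Its lowest, median and highest libraries were at 32.04, 35.05 and 38.1 CPM in WT_unstimulated, 32.1, 32.7 and 36.3 in AhR-KO_unstimulated, 22.9, 25.2 and 27.5 in WT_LPS and 20.98, 22.8 and 25.9 in AhR-KO_LPS. The LPS libraries lay below the unstimulated ones of their genotype. The differences with LPS were -0.46 ± 0.059 log2 in WT and -0.53 ± 0.059 in AhR-KO (edgeR adjusted p = 1.74e-08 and 6.82e-10), not DARs.

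Counting all tested peaks, LPS changed many peaks of these genes in both directions and both genotypes. In WT 49 of 112 were DARs (28 higher and 21 lower; 43.8%), where 47.0% of all tested peaks were (25.4% higher and 21.6% lower). In AhR-KO 58 were (36 higher and 22 lower; 51.8%), where 48.8% were (27.3% and 21.5%). The median log2 difference was 0.0041 in WT and 0.059 in AhR-KO, against -0.014 and 0.046 over all peaks. Of the WT DARs 24 of the higher (85.7%) and 18 of the lower (85.7%) were also called in that direction in AhR-KO, which is 66.7% and 81.8% of the AhR-KO DARs, and 0 were called in opposite directions. No such overlap over all tested peaks is given, so these shares cannot be read as particular to these genes.

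The direction of the LPS DARs is given gene by gene, without a test between genes. Casp4 had 5 higher and 0 lower of 10 tested peaks in WT and 8 higher and 0 lower in AhR-KO, and Mefv had 3 higher and 0 lower of 10, then 5 higher and 0 lower. Nlrp3 had 5 higher and 1 lower of 14, then 6 higher and 2 lower, and Pycard 3 higher and 1 lower of 8, then 2 higher and 0 lower. Falls outnumbered rises at Aim2, with 4 higher and 8 lower of 35, then 6 higher and 9 lower, and at Nlrp1b, with 1 higher and 4 lower of 10, then 2 higher and 5 lower. Nlrc4 had 4 higher and 3 lower of 12, then 3 higher and 3 lower, Gsdmd 3 higher and 4 lower of 11, then 3 higher and 3 lower, and Casp1 0 higher and 0 lower of 2, then 1 higher and 0 lower.

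**Figure D2:**
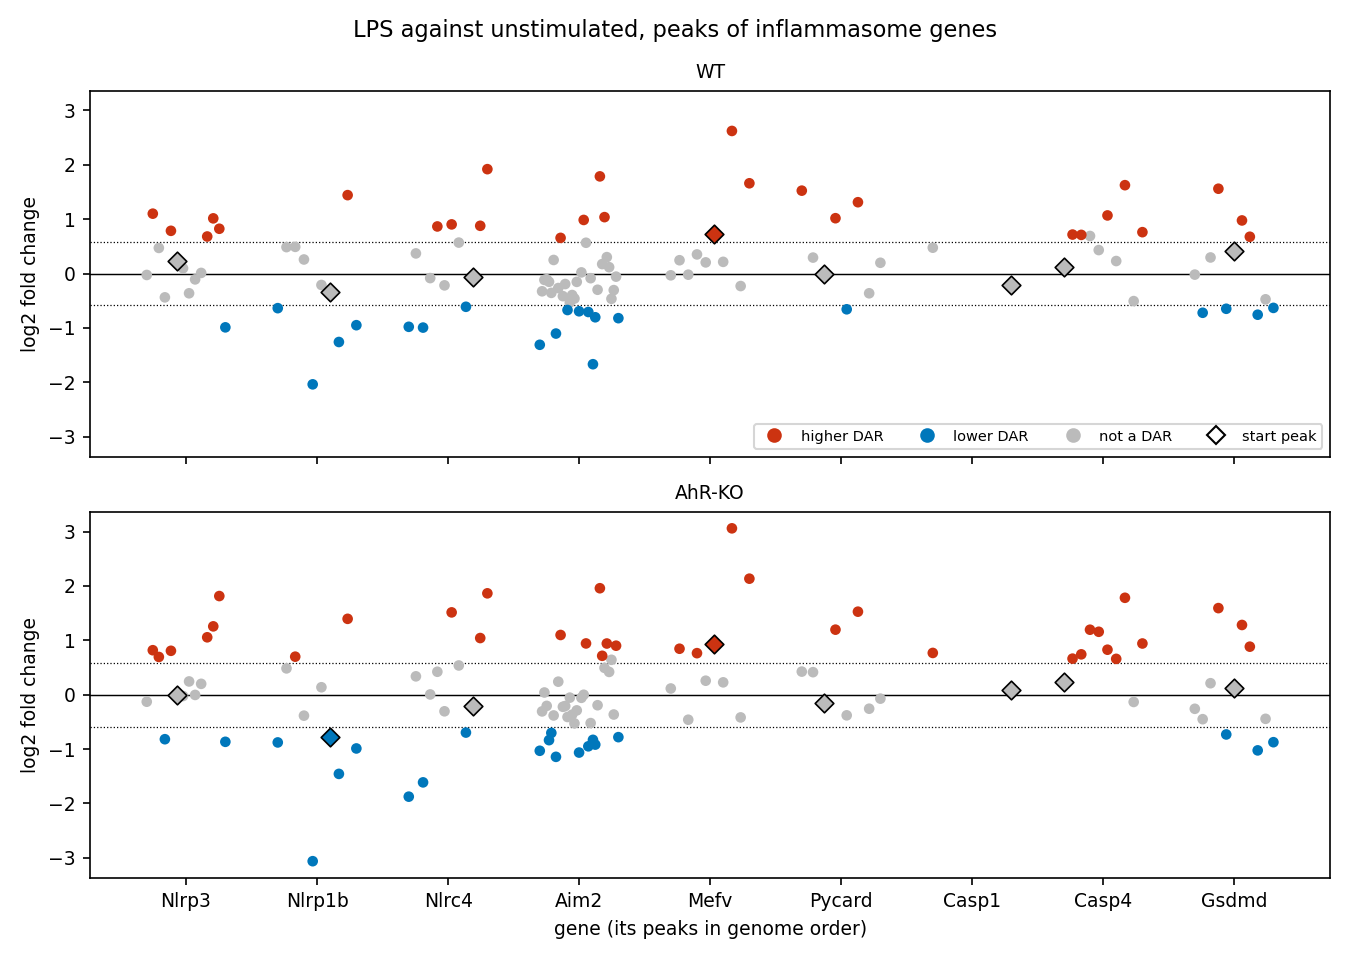
LPS against unstimulated for the 112 tested peaks, as log2 fold change by gene with the peaks of each gene in genome order, WT above and AhR-KO below. Red and blue points are higher and lower DARs, grey points are not DARs, diamonds are start peaks and dotted lines mark a fold of 1.5. The Mefv peak 10.4 kb upstream is the highest point in both panels.

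The peak 10.4 kb upstream of Mefv (chr16:3728262-3728780), whose AP-1 match is printed above, led the rises. Its lowest, median and highest libraries were at 1.63, 1.78 and 2.02 CPM in WT_unstimulated, 0.866, 1.35 and 1.65 in AhR-KO_unstimulated, 8.77, 11.3 and 12.9 in WT_LPS and 9.98, 11.1 and 11.9 in AhR-KO_LPS. A peak was called there in 0 of 12 unstimulated and in 12 of 12 LPS libraries. The rise was 2.62 ± 0.12 log2 in WT (6.20-fold, edgeR adjusted p = 7.13e-20) and 3.06 ± 0.12 in AhR-KO (8.44-fold, edgeR adjusted p = 6.62e-22), and their difference did not pass the test (0.44 ± 0.18, edgeR adjusted p = 0.101). A fainter Mefv peak 17 kb upstream (chr16:3734876-3735227) rose as well, by 1.66 ± 0.24 in WT and 2.13 ± 0.28 in AhR-KO (edgeR adjusted p = 1.75e-07 and 1.57e-08), from medians of 0.405 and 0.201 CPM to 1.19 and 0.914. The most open Mefv peak outside the start, 5.3 kb upstream (chr16:3722577-3724299), ranged over 18.2 to 35.2 CPM and was not a DAR for LPS.

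At Nlrc4 the leading rise lay 19.7 kb upstream (chr17:74478323-74479386; AP-1 match printed above). The lowest, median and highest libraries were at 0.594, 0.766 and 0.872 CPM in WT_unstimulated, 0.920, 1.01 and 1.26 in AhR-KO_unstimulated, 1.86, 2.88 and 3.77 in WT_LPS and 3.49, 3.83 and 4.45 in AhR-KO_LPS. LPS and unstimulated libraries were apart in both genotypes, with rises of 1.92 ± 0.17 and 1.86 ± 0.15 log2 (edgeR adjusted p = 5.15e-12 and 3.79e-13). At Casp4, the caspase that binds LPS, an intron peak 2.9 kb from the start (chr9:5311364-5312056) rose from medians of 9.52 CPM in WT and 9.28 in AhR-KO to 15.1 and 14.9 (0.72 ± 0.072 and 0.66 ± 0.071, edgeR adjusted p = 7.43e-11 and 2.61e-10). The most open Casp4 peak outside the start (chr9:5343096-5346131) lay over the start of Casp12 and was a DAR in none of the 5 comparisons.

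The adaptor and the pore former had rises upstream too. The most open Pycard peak outside the start, 8.2 kb upstream (chr7:128001683-128002469), rose from medians of 1.48 and 1.76 CPM in WT and AhR-KO to 3.79 and 5.26 (1.31 ± 0.14 and 1.53 ± 0.13 log2, edgeR adjusted p = 2.97e-10 and 6.71e-13). A Gsdmd peak 11.3 kb upstream (chr15:75850830-75851212), singled out after its values were seen, rose from 0.838 and 0.783 to 2.64 and 1.93 (1.56 ± 0.18 and 1.59 ± 0.19, edgeR adjusted p = 2.79e-09 and 2.58e-09). A more open Gsdmd peak 5 kb upstream (chr15:75856738-75857882) fell, from 38.6 and 41.1 to 24.7 and 25.3 (-0.65 ± 0.078 and -0.73 ± 0.077, edgeR adjusted p = 5.87e-09 and 2.67e-10). Gsdmd thus held peaks of both directions in 1 upstream stretch. The most open Nlrp3 peak outside the start (chr11:59525127-59527658), within Zkscan17, ranged over 16.1 to 23.3 CPM and was not a DAR for LPS. At Casp1 the only other peak (chr9:5279488-5280118) rose in AhR-KO (0.77 ± 0.22, edgeR adjusted p = 0.00280) and had 0.47 ± 0.21 in WT (edgeR adjusted p = 0.0502). This Casp1 peak was faint, at 0.501 to 0.848 CPM in AhR-KO_unstimulated and 0.814 to 1.51 in AhR-KO_LPS, which overlap.

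The falls with LPS were led by Aim2, the sensor of cytosolic DNA. Its most open peak, in an intron 3.8 kb before the downstream start (chr1:173450524-173452626), had its lowest, median and highest libraries at 44.4, 46.9 and 48.3 CPM in WT_unstimulated, 49.98, 52.5 and 54.3 in AhR-KO_unstimulated, 24.96, 26.6 and 28.8 in WT_LPS and 26.2, 27.3 and 29.2 in AhR-KO_LPS. The fall was -0.80 ± 0.048 log2 in WT and -0.92 ± 0.048 in AhR-KO, to 0.572 and 0.529 of the unstimulated mean (edgeR adjusted p = 8.76e-17 and 8.58e-19). A second intron peak of Aim2, 17.8 kb before that start (chr1:173437045-173438015), fell from medians of 20.1 and 17.6 CPM to 12.3 and 9.05 (-0.71 ± 0.066 and -0.95 ± 0.068, edgeR adjusted p = 1.17e-11 and 6.39e-15). At both peaks the LPS libraries lay below all unstimulated libraries of their genotype. The deepest fall in fold was at an Nlrp1b intron peak (chr11:71190339-71191938), singled out after its values were seen, from medians of 1.02 and 1.48 CPM to 0.258 and 0.208 (-2.04 ± 0.26 and -3.06 ± 0.25, edgeR adjusted p = 1.54e-08 and 3.07e-13).

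**Figure D3:**
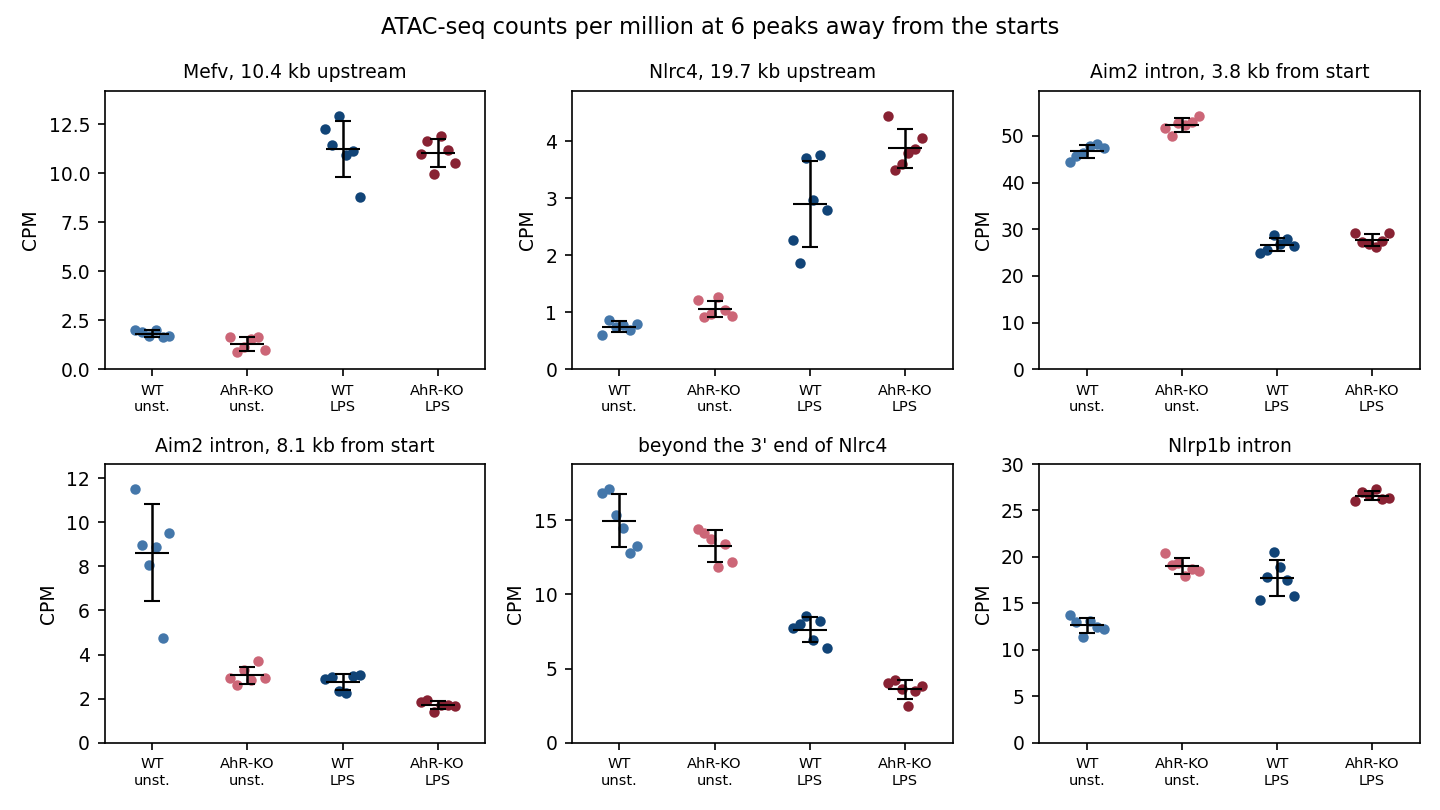
Accessibility in every library at 6 peaks away from the starts, in CPM on linear axes from 0, with the mean and SD of each group of 6. The top row shows peaks led by LPS and the bottom row peaks at which AhR-KO and WT differed, such as the Aim2 intron peak 8.1 kb from the start with medians of 8.93 CPM in WT_unstimulated and 2.94 in AhR-KO_unstimulated.

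Genotype DARs were fewer than LPS DARs among these peaks. Without LPS 12 of 112 were DARs (7 higher and 5 lower in AhR-KO; 10.7%), where 22.6% of all tested peaks were (9.95% higher and 12.6% lower). With LPS 17 were (8 higher and 9 lower; 15.2%), where 26.5% were (13.4% and 13.1%). Whether these shares differ from those of all peaks was not tested. The median log2 differences were -0.083 and -0.0072, against -0.021 and 0.021 over all peaks.

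The lower DARs in AhR-KO lay at Aim2 (2 without LPS and 5 with it, of 35 tested peaks), Nlrc4 (2 and 4 of 12) and Mefv (1 and 0 of 10). These were 5.71% and 14.3% of the Aim2 peaks, 16.7% and 33.3% at Nlrc4 and 10.0% and 0.0% at Mefv. Of all tested peaks 12.6% and 13.1% were lower, and differences between genes were not tested. The higher ones lay at Nlrp1b (3 and 1 of 10), Nlrp3 (1 and 3 of 14), Gsdmd (1 and 2 of 11), Aim2 (1 and 2 of 35) and Pycard (1 and 0 of 8). Of all tested peaks 9.95% and 13.4% were higher. Casp1, with 2 tested peaks, and Casp4, with 10, had 0 genotype DARs by edgeR in either treatment. The lists of both treatments shared 4 higher DARs, of 7 and of 8, and 3 lower ones, of 5 and of 9, and 0 were opposite. The overlap over all tested peaks is not given, so these counts cannot be read as particular to these genes.

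Without LPS the genotypes were apart in the summed levels at alveolar macrophage and macrophage marker starts and at the neutrophil marker S100a8, all higher in AhR-KO. With LPS the genotypes overlapped in these, but were apart in the dendritic cell sum and at the fibroblast marker Pdgfra, both lower in AhR-KO. These levels are a description, and no marker was tested. The start peaks of the 4 alveolar macrophage markers (Pparg, Siglecf, Car4 and Fabp4, 4 of 4 with a start peak) summed to 30.8 to 39.1 CPM in WT_unstimulated, 43.8 to 53.8 in AhR-KO_unstimulated, 23.3 to 29.7 in WT_LPS and 27.5 to 33.97 in AhR-KO_LPS. Those of macrophage markers (5 of 6, Spi1 having none) summed to 96.9 to 107.0, 111.9 to 150.7, 90.4 to 100.4 and 85.3 to 115.9, and those of dendritic cell markers (4 of 4) to 41.0 to 50.7, 46.0 to 55.1, 45.7 to 70.9 and 41.0 to 44.0. Of the latter, Flt3 averaged 9.07 and 4.09 CPM in WT and AhR-KO without LPS and 11.6 and 4.73 with it, and Ccr7 0.940 and 0.551, then 7.05 and 2.46. Zbtb46 averaged 21.6 and 25.1, then 17.99 and 15.8, and Batf3 15.1 and 20.2, then 21.9 and 19.8. Without LPS Flt3 and Ccr7 were thus lower in AhR-KO and Zbtb46 and Batf3 higher, while with LPS all 4 were lower in AhR-KO. Lymphocyte (0 of 4) and mast cell markers (0 of 2) had no start peak, neutrophil markers had 1 of 4 (S100a8) and fibroblast markers 1 of 2 (Pdgfra). S100a8 was at 17.7 to 22.1 CPM in WT_unstimulated, 22.7 to 26.9 in AhR-KO_unstimulated, 12.97 to 19.8 in WT_LPS and 16.1 to 18.2 in AhR-KO_LPS, and Pdgfra at 13.5 to 19.7, 15.2 to 17.9, 12.8 to 18.9 and 10.9 to 12.3. The part of these shifts in the results was not tested, and in bulk samples fewer cells of a type and less open chromatin per cell cannot be told apart.

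**Figure D4:**
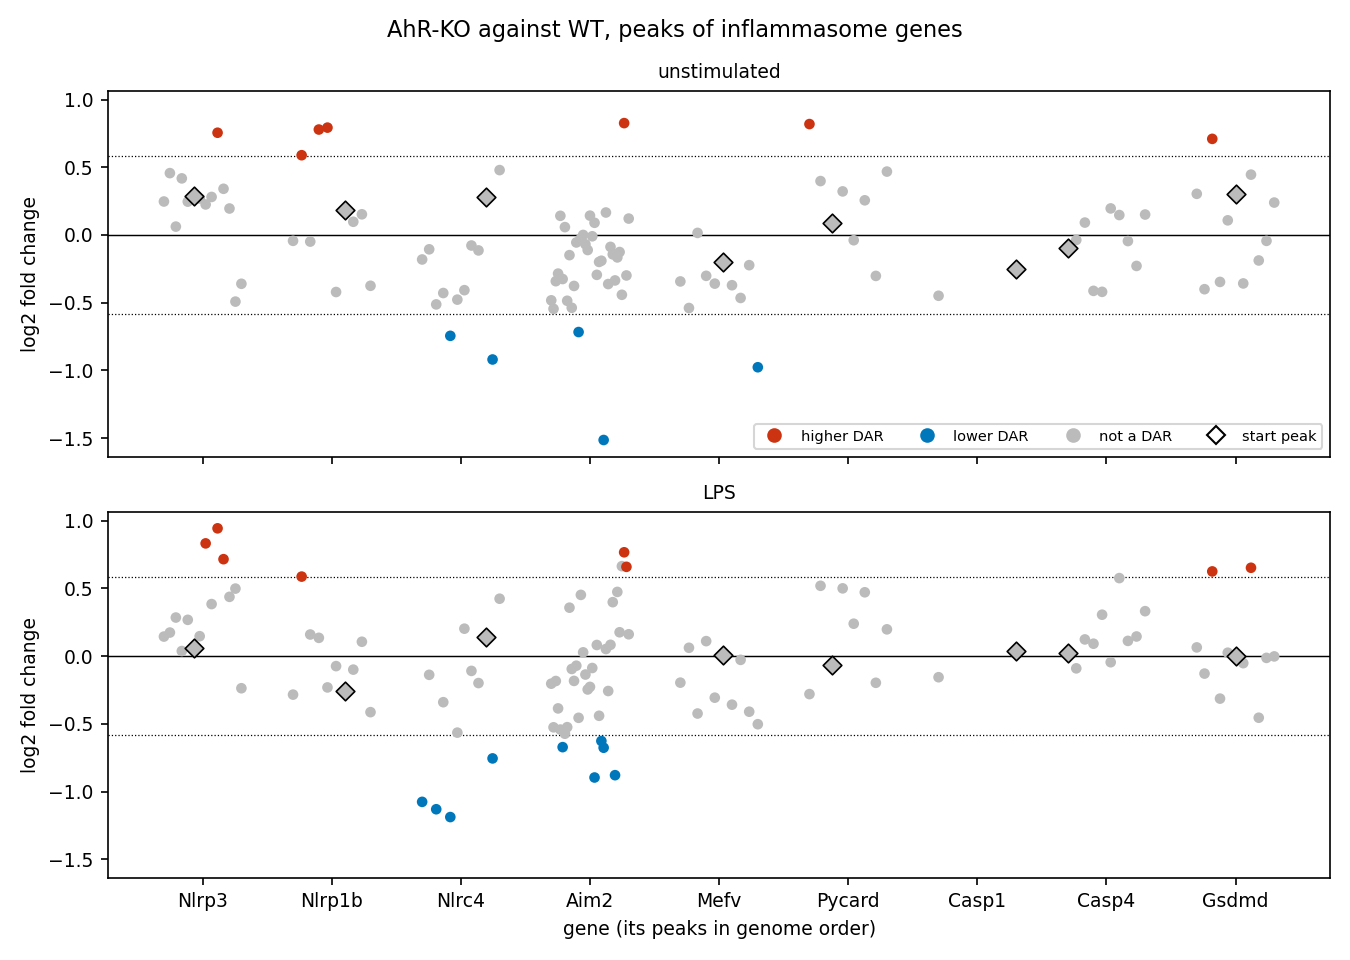
AhR-KO against WT for the 112 tested peaks, as log2 fold change by gene with the peaks of each gene in genome order, unstimulated above and LPS below. Red and blue points are higher and lower DARs, grey points are not DARs, diamonds are start peaks and dotted lines mark a fold of 1.5. The 8 diamonds lie between the dotted lines in both panels, and the lowest point of all is the Aim2 intron peak 8.1 kb from the start.

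That Aim2 peak (chr1:173447165-173447418), printed above, led the falls without LPS. Its lowest, median and highest libraries were at 4.77, 8.93 and 11.5 CPM in WT_unstimulated, 2.60, 2.94 and 3.69 in AhR-KO_unstimulated, 2.25, 2.92 and 3.06 in WT_LPS and 1.40, 1.71 and 1.93 in AhR-KO_LPS. The genotypes did not overlap in either treatment, and a peak was called in 5 of 6 WT_unstimulated, 1 of 6 WT_LPS and 0 of 12 AhR-KO libraries. AhR-KO minus WT was -1.51 ± 0.13 log2 without LPS (0.354 of the WT mean, edgeR adjusted p = 2.34e-11) and -0.68 ± 0.15 with it (edgeR adjusted p = 0.000276). LPS minus unstimulated was -1.67 ± 0.13 for WT, -0.83 ± 0.15 for AhR-KO, with an interaction of 0.84 ± 0.20 (edgeR adjusted p = 0.00378). The lowest WT_unstimulated library was replicate 5, the shallowest, and without it AhR-KO minus WT was -1.61 (edgeR adjusted p = 2.41e-13).

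Further Aim2 peaks differed in both directions. An intron peak (chr1:173408989-173409515) was at medians of 24.5 CPM in WT_unstimulated and 15.1 in AhR-KO_unstimulated with no overlap (-0.72 ± 0.076 log2, edgeR adjusted p = 1.56e-09), and at 14.8 and 11.4 with LPS (-0.46 ± 0.077, under the fold threshold). With LPS an intron peak 13.8 kb before the downstream start (chr1:173440744-173442441) was at 17.2 in WT and 12.3 in AhR-KO (-0.63 ± 0.084, edgeR adjusted p = 1.57e-07), and a coding exon peak (chr1:173461580-173462593) at 5.44 and 2.89 (-0.88 ± 0.12, edgeR adjusted p = 2.53e-07). A peak downstream of Aim2 and within Ifi206 (chr1:173477409-173478426) was higher in AhR-KO, with medians of 3.15 and 5.56 CPM without LPS and 2.43 and 4.41 with it (0.83 ± 0.14 and 0.77 ± 0.13, edgeR adjusted p = 6.58e-06 and 1.12e-05).

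At Nlrc4, the sensor that acts with NAIP proteins, every genotype DAR was lower in AhR-KO. The leading peak by p lay beyond the 3′ end, 33.4 kb from the start (chr17:74414382-74415162). Its lowest, median and highest libraries were at 12.8, 14.9 and 17.1 CPM in WT_unstimulated, 11.8, 13.6 and 14.4 in AhR-KO_unstimulated, 6.39, 7.87 and 8.53 in WT_LPS and 2.45, 3.73 and 4.22 in AhR-KO_LPS. The genotypes overlapped without LPS and were apart with it. AhR-KO minus WT was -0.18 ± 0.094 log2 without LPS (edgeR adjusted p = 0.128) and -1.08 ± 0.11 with it (edgeR adjusted p = 3.41e-10). The log2 fall with LPS was -0.98 ± 0.096 for WT, -1.87 ± 0.10 for AhR-KO (edgeR adjusted p = 4.02e-11 and 5.33e-18), with an interaction of -0.90 ± 0.14 (edgeR adjusted p = 4.02e-05).

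The other Nlrc4 falls were at lower levels. An intron peak 13.3 kb from the start (chr17:74434194-74435520) had medians of 1.76 and 1.04 CPM in WT and AhR-KO without LPS and 3.03 and 1.39 with it (-0.74 ± 0.23 and -1.19 ± 0.19 log2, edgeR adjusted p = 0.00789 and 3.55e-06). A peak 3.2 kb upstream (chr17:74462141-74462458) had 2.17 and 1.11, then 3.69 and 2.17 (-0.92 ± 0.18 and -0.75 ± 0.14, edgeR adjusted p = 8.54e-05 and 4.7e-05). Another, in an intron (chr17:74430262-74430949) and singled out after its values were seen, had 2.49 and 1.66, then 1.27 and 0.577, and was a genotype DAR with LPS (-1.13 ± 0.22, edgeR adjusted p = 5.54e-05).

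The higher DARs were led by an intron of Nlrp1b. At its most open peak outside the start (chr11:71159358-71160052) the lowest, median and highest libraries were at 11.3, 12.7 and 13.7 CPM in WT_unstimulated, 17.9, 18.9 and 20.4 in AhR-KO_unstimulated, 15.4, 17.7 and 20.6 in WT_LPS and 26.01, 26.5 and 27.3 in AhR-KO_LPS. All AhR-KO libraries lay above all WT libraries of the same treatment. AhR-KO minus WT was 0.59 ± 0.068 log2 without LPS and 0.59 ± 0.063 with it (edgeR adjusted p = 8.49e-09 and 1.78e-09), just past the fold threshold, and the interaction was -0.0015 ± 0.089 (edgeR adjusted p = 0.995). The Nlrp1b intron peak that fell deepest with LPS was also higher in AhR-KO without LPS (0.79 ± 0.21, edgeR adjusted p = 0.00207).

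At Nlrp3 the genotype DARs were higher in AhR-KO. An intron peak 20.7 kb from the start (chr11:59562909-59563785) had medians of 1.19 and 2.00 CPM in WT and AhR-KO without LPS and 1.23 and 2.20 with it (0.76 ± 0.20 and 0.94 ± 0.18 log2, edgeR adjusted p = 0.00213 and 3.65e-05). It was called in 1 WT_unstimulated and 0 WT_LPS libraries, against 6 and 5 of AhR-KO. At Gsdmd a peak 14.7 kb upstream (chr15:75847378-75847869) was higher in AhR-KO by 0.71 ± 0.18 and 0.63 ± 0.16 (edgeR adjusted p = 0.00165 and 0.00127). This Gsdmd peak was faint, at 0.858 to 1.28 CPM in WT and 1.43 to 2.12 in AhR-KO without LPS. With LPS the genotypes overlapped, at 0.779 to 1.79 in WT and 1.74 to 2.32 in AhR-KO. The faint Mefv peak 17 kb upstream was lower in AhR-KO without LPS (-0.98 ± 0.33, edgeR adjusted p = 0.0177), at 0.248 to 0.582 CPM in WT and 0.130 to 0.254 in AhR-KO, which overlap.

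The response to LPS differed between genotypes at 10 of the 112 peaks (5 higher and 5 lower in AhR-KO; 8.93%), where 10.4% of all tested peaks were interaction DARs (5.83% higher and 4.58% lower). Of the 8 start peaks 0 were by edgeR and by DESeq2, where 3.60% of all start peaks were by edgeR. An unadjusted edgeR p under 0.05 was found at 4 of the 8, for which no share over all start peaks is given. Beside the Aim2 and Nlrc4 peaks above, an Aim2 intron peak (chr1:173432333-173432853) rose with LPS in WT, from a median of 1.48 to 3.01 CPM (0.99 ± 0.16 log2, edgeR adjusted p = 1.83e-06), and was at 1.67 and 1.60 in AhR-KO (-0.00087 ± 0.16, edgeR adjusted p = 0.997). An Aim2 intron peak that also covers the start of Cadm3 (chr1:173365645-173368006) fell in AhR-KO (-0.84 ± 0.10, edgeR adjusted p = 3.98e-09) and had -0.15 ± 0.10 in WT (edgeR adjusted p = 0.183).

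For the wider pathway, 22 genes for other sensors, NAIP receptors, activators, effectors and cytokines were counted the same way. Of their 274 tested peaks 38 were higher and 25 lower in AhR-KO without LPS, and 52 and 19 with it. LPS raised 79 and lowered 44 in WT, and raised 92 and lowered 51 in AhR-KO. The shares of all tested peaks are those given above. At its start, Gsdme, another gasdermin, was lower in AhR-KO, with medians of 17.6 and 8.24 CPM without LPS and 12.9 and 7.65 with it (-1.20 ± 0.10 and -0.83 ± 0.098 log2, edgeR adjusted p = 6.48e-12 and 1.14e-08). Il1b, which encodes the cytokine that CASP1 matures, rose with LPS, with medians of 2.59 and 10.3 CPM for WT, then 4.24 and 10.8 for AhR-KO (1.96 ± 0.14 and 1.36 ± 0.13, edgeR adjusted p = 7.92e-15 and 7.08e-12), with an interaction of -0.60 ± 0.19 (edgeR adjusted p = 0.0262).

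Panx1, a membrane channel, was lower in AhR-KO with LPS, at medians of 31.7 CPM in WT and 17.4 in AhR-KO (-0.86 ± 0.061 log2, edgeR adjusted p = 3.25e-13). Without LPS the difference was -0.26 ± 0.061 (edgeR adjusted p = 0.000791), under the fold threshold. LPS lowered its start in AhR-KO (-0.78 ± 0.062, edgeR adjusted p = 1.05e-13), against -0.18 ± 0.060 in WT (edgeR adjusted p = 0.00920). The interaction was a DAR (-0.60 ± 0.086, edgeR adjusted p = 9.06e-06). With LPS the start of Zbp1, a sensor of Z-form nucleic acids, was higher in both genotypes, by 0.55 ± 0.051 in WT and 0.93 ± 0.051 in AhR-KO (edgeR adjusted p = 1.11e-11 and 2.87e-18; interaction 0.38 ± 0.072, edgeR adjusted p = 0.000360). That of Ninj1, which ruptures the dying cell's membrane, was higher by 0.56 ± 0.057 and 0.61 ± 0.057 (edgeR adjusted p = 1.37e-10 and 8.2e-12; interaction 0.050 ± 0.080, edgeR adjusted p = 0.728). A start peak of Casp8, an initiator caspase, was lower in both (chr1:58795063-58796124), at -0.53 ± 0.068 and -0.88 ± 0.068 (edgeR adjusted p = 2.2e-08 and 6.07e-14). The interaction there was -0.35 ± 0.096 (edgeR adjusted p = 0.0115). At these 3 start peaks, of Zbp1, Ninj1 and Casp8, the fold passed 1.5 in AhR-KO and not in WT. The other Casp8 start peak (chr1:58802141-58803982) was more open, at a mean of 27.3 against 23.2 CPM, and was a DAR in no comparison. Its LPS values were -0.38 ± 0.064 in WT and -0.29 ± 0.063 in AhR-KO, with an interaction of 0.087 ± 0.090 (edgeR adjusted p = 0.561).

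Motifs were counted in 300 bases centred on each of the 112 peaks, which for shorter peaks include flanking sequence. The core AhR element GCGTG stood in 15 of 112 (13.4%), where 16.3% of 174106 tested peaks held it, and in 0 of 5 and 1 of 9 peaks lower in AhR-KO without and with LPS, where 14.3% and 14.9% of all such DARs did. TGANTCA stood in 22 of 112 (19.6%, against 18.1%) and in 10 of 28 peaks that rose with LPS in WT (35.7%, against 35.6% of all that rose). The ISRE stood in 10 of 112 (8.93%, against 4.60%), the NF-κB motif in 6 of 112 (5.36%, against 2.32%), TTCNNNGAA in 12 of 112 (10.7%, against 11.1%) and the PU.1-IRF composite in 4 of 112 (3.57%, against 2.28%). Of the RefSeq promoter windows (250 bases before to 50 after a start), 11 windows of 8 of the genes were matched, and GCGTG stood in that of Mefv, where 32.4% of 32851 windows held it. The NF-κB motif stood in 2 of the 11, both of Casp4, where 1.63% of all windows held it. These Casp4 windows (chr9:5308599-5308898 and chr9:5308610-5308909) overlap over most of their length, so that 1 site may count in both. The other 4 motifs stood in 0 of the 11. A match is a description of letters and not a bound site.

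Start peaks of other protein-coding genes that lay nearest to those of the 3 genes with the widest range, by Euclidean distance of centred log2 CPM over the 24 libraries, are given as a description. Nearest to Mefv were Gbp6, whose peak also starts Gm43302 (distance 0.975), and Ube2l6 (0.996), with a median of 2.64 over 13457 start peaks. Nearest to Nlrp1b were Klf10 (0.416) and Scarb1 (0.433; median 1.58), and to Gsdmd Rab20 (0.501) and Tlr2 (0.503; median 1.40).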

How the data were processed

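ATAC-seq libraries of BMDMs were compared over consensus peaks. The authors deposited fragment counts per consensus peak, made with nf-core/atacseq on mm10 and featureCounts 2.0.1 per the labels (a fragment was counted to every peak that held at least 0.2 of it), and these counts were used as deposited. The deposited broad peaks of each library, called with MACS2 on that library alone and not on pooled samples, gave the −log10 q-value used to say in how many libraries a peak was called. Duplicates and strain differences in alignment were handled upstream and could not be reassessed from these files. Starts in the count table were counted from 0 and were moved to count from 1.

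Counts were scaled by TMM, filtered with filterByExpr and fitted over all 24 libraries with edgeR 4.0.16 (quasi-likelihood, trended dispersion, robust; R 4.3.3). Differences between groups were contrasts of this fit, and adjusted p-values are Benjamini-Hochberg values over 174193 peaks. Standard errors were the log2 fold change divided by the square root of F. The fit was tested on simulated data. Named were, for each gene, its start peak and its most open other peak, and in each comparison the 3 DARs of each direction with the smallest p, or those singled out in the text. Of the 22 pathway genes, up to 6 with a start peak DAR were named by smallest p. Genes, lists and motifs were chosen with earlier results of these data known. Alternatives were RLE scaling, no filter, DESeq2 1.42.0, fits of the 2 groups compared, other fold thresholds, a window of 5 kb, replicate blocks and a fit without WT_unstimulated replicate 5. Promoters were RefSeq windows of GRCm38.p6, and Gsdmd had none there that matched by symbol. The result of 1 peak is not reported here.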

Additional observations from a re-analysis of the deposited data

Results flagged for a closer look

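The response to LPS differed between genotypes, by the interaction term of the edgeR fit, at 10 peaks, of which 9 are given here. At Aim2 the interaction was -0.68 for the peak at chr1:173365645-173368006 (edgeR adjusted p = 0.00104), -0.63 at chr1:173377350-173377928 (edgeR adjusted p = 0.00821) and -0.99 at chr1:173432333-173432853 (edgeR adjusted p = 0.00341), each a lower response in AhR-KO on the log2 scale. It was 0.84 at chr1:173447165-173447418 (edgeR adjusted p = 0.00378) and 0.96 at chr1:173479124-173479650, within Ifi206 (edgeR adjusted p = 0.0271). At Nlrc4 it was -0.90 at chr17:74414382-74415162 (edgeR adjusted p = 4.02e-05) and 0.61 at chr17:74441833-74442455 (edgeR adjusted p = 0.0279), and the latter was not a DAR without WT_unstimulated replicate 5. At Mefv it was 0.60 at chr16:3700878-3701175 (edgeR adjusted p = 0.0130), and at Nlrp3 0.99 at chr11:59571738-59572394, over the start of Olfr222 (edgeR adjusted p = 0.0213). This Nlrp3 peak was faint, at 0.307 to 2.06 CPM over the 24 libraries, as was the Aim2 peak at chr1:173479124-173479650, at 0.511 to 2.12.

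A library stood apart from the other 5 of its group in 6 of 156 groups over 39 peaks, where chance gives about 1 in 20. At the Aim2 coding exon peak AhR-KO_LPS replicate 6 was at 4.22 CPM and the others at 2.62 to 3.01, and at the Aim2 peak within Ifi206 WT_LPS replicate 5 was at 2.98 and the others at 2.30 to 2.50. At the Casp4 intron peak AhR-KO_unstimulated replicate 5 was at 7.80 and the others at 9.24 to 9.56. At the start peaks, AhR-KO_LPS replicate 5 was at 20.2 for Nlrc4 (others 16.7 to 17.97) and AhR-KO_LPS replicate 4 at 14.9 for Nlrp1b (others 16.7 to 17.4). At the most open Nlrp3 peak outside the start, WT_LPS replicate 1 was at 16.1 and the others at 17.8 to 18.6.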

How the results depend on the processing

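Counts are given as lower and higher DARs. With a fold of at least 2 they were 1 and 0 for genotype without LPS, 3 and 0 with LPS, 5 and 14 for LPS in WT, 8 and 18 for LPS in AhR-KO, and 1 and 0 for the interaction by edgeR, while 48, 56, 79, 82 and 35 peaks had an unadjusted p under 0.05 at any fold. With no fold threshold they were 25 and 17, 29 and 19, 34 lower, 36 lower, and 9 and 8 in the same order. No shares over all peaks are given at these other thresholds. With a window of 5 kb the higher genotype DARs were 4 and 4, the LPS DARs 10 and 18 (WT) or 13 and 23 (AhR-KO), and the interaction DARs 3 and 3, since fewer peaks were counted. The higher interaction DARs were 3 with RLE scaling and 3 with DESeq2. Without WT_unstimulated replicate 5, the shallowest library, the counts were 5 and 7, 10 and 8, 21 and 33, 22 and 36, and 5 and 4. The main fit did not take replicate numbers to pair the libraries. This choice cannot show that the libraries of a genotype were unpaired, and it rested on same-number correlations, of which not all passed 0.1. For genotype they were -0.0967 to 0.0478 without LPS and -0.128 to 0.219 with it (0 and 2 of 6 over 0.1, with 4 and 3 of 12 libraries correlating best with their own number). For LPS they were all above 0, at 0.037 to 0.29 for WT and 0.00375 to 0.171 for AhR-KO (5 and 2 of 6 over 0.1, with 7 and 6 of 12 libraries), a hint from the data that numbers go together within a genotype. With the replicate block the counts were 5 and 7, 9 and 9, 21 and 28, 22 and 36, and 5 and 5. With a block within genotype they were 21 and 28 for LPS in WT, 22 and 36 for LPS in AhR-KO and 6 and 6 for the interaction. The interaction at the Nlrp3 start, -0.23 with an edgeR adjusted p of 0.0841, had adjusted p-values of 0.0154 with the block within genotype, 0.0524 with the replicate block, 0.0363 with RLE, 0.0418 with DESeq2, 0.0829 with no filter and 0.120 without WT_unstimulated replicate 5, at folds under 1.5 throughout. Of 256 start peak values under these alternatives, 238 kept their direction and side of an adjusted p of 0.05 and 10 moved past it. The direction turned for 8 small log2 values: Pycard for LPS in WT (0.0038 with RLE, 0.00041 with no filter, 0.022 without WT_unstimulated replicate 5, 0.0029 with the 2 groups alone and 0.0032 with DESeq2), and, for genotype with LPS and the 2 groups alone, Casp4 (-0.0017), Gsdmd (-0.018) and Mefv (-0.013). The cause was not tested.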
